A study of Mus musculus with 10 samples.

Results

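Homeostatic chemokines are the ligands that are made all the time in lymphoid organs and that set where lymphocytes live, in contrast to the chemokines induced by inflammation. In the spleen, CCL19 and CCL21 are made by reticular cells of the T cell zone and draw cells that carry CCR7, CXCL13 is made by follicular dendritic cells and marginal reticular cells and draws B cells that carry CXCR5, and CXCL12 is made by reticular and vascular cells and acts on CXCR4. The atypical receptors ACKR3, which takes up CXCL12, and ACKR4, which takes up CCL19 and CCL21, bind these ligands and degrade them without the usual G protein signal. The genes described here are the 9 of this set with the symbols Ccl19, Ccl21a, Cxcl13, Cxcl12, Ccr7, Cxcr5, Cxcr4, Ackr3 and Ackr4. They were taken by symbol from a table of 54532 genes, where they fill 11 rows, because Ccl19 and Ccl21a are each listed on chromosome 4 and again on the scaffold JH584294.1, a piece of the mouse reference with no place on a chromosome.

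The libraries came from whole spleens of 5 DUSP6 KO and 5 WT mice, 1 library per animal, collected 9 days into KRN serum-induced arthritis (KSIA). All animals of both groups received 100 µL of arthritogenic serum into the peritoneum at day 0 and day 2, so no library came from an untreated mouse. DUSP6 KO mice carry the Dusp6tm1Jmol allele in all cells and lack the phosphatase that limits ERK signalling, and the sample labels call the genotype a knockdown. WT mice were C57BL/6J, and mice of the study were 8 to 12 weeks old. Libraries are named here by genotype and the number in their title, which pairs no animals across the groups. Values are FPKM, the reads of a gene per kilobase of its length and per 1000000 reads, and the reads recovered from them came to 14990474 to 19822673 per library. The total by which the deposited FPKM were scaled was 0.949 to 1.12 times these recovered reads. Dusp6 was at 0.31 to 0.62 FPKM in the 5 KO libraries and at 16.6 to 24.0 FPKM in the 5 WT libraries. The splenic stromal factor Tlx1 was at 9.84 FPKM or more in every library. In WT 67 the summed level of 9 genes of exocrine pancreas was 15329 FPKM and in WT 65 it was 196 FPKM, against 9.58 to 26.2 FPKM in the other 8 libraries. Adipose genes summed to 45.5 FPKM in WT 67 and 29.3 FPKM in KO 73, against 0.90 FPKM or less elsewhere. The T cell and B cell lists were lowest in KO 73 and WT 77. In whole spleen, fewer cells of a type and less RNA per cell cannot be told apart.

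The annotation holds near-identical copies of Ccl19 and of Ccl21a, and the sequences below show how few bases separate the rows that the reads were divided over. Ccl19 (ENSMUSG00000071005) lies at chr4:42754525-42756577 on the minus strand of GRCm38. The stretch shown is all of exon 2 (chr4:42755168-42755300) and exon 3 (chr4:42754857-42754950), both coding, at positions 275 to 501 counted from base 1 of the annotated Ccl19 transcript. Sequences are from the GENCODE M21 transcripts and run 5′ to 3′ on the sense strand. Capitals in Ccl19 mark the bases at which any copy differs, and capitals in a copy mark its own differences.
Ccl19: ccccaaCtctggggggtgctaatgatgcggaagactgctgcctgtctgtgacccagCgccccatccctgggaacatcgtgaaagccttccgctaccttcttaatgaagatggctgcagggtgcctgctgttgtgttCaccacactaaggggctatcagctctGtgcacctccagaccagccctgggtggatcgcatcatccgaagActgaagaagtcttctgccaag
Ccl19-ps3: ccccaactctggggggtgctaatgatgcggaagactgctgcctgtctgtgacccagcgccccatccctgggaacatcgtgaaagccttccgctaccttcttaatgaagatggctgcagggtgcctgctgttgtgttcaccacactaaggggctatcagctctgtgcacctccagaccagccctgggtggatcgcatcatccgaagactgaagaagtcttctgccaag
Gm12407: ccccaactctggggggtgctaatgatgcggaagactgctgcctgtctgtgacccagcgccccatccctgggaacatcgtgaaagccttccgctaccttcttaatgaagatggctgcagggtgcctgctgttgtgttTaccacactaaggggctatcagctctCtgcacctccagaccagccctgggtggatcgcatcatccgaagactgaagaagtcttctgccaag
Ccl19-ps1: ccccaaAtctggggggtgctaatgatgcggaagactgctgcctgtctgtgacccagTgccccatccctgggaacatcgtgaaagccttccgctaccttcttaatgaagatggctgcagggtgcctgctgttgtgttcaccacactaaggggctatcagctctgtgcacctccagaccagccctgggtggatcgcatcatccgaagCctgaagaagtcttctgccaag

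Over its whole annotated length of 324 bases, Ccl19-ps3 (chr4:42132559-42134171, plus strand) was identical to positions 217 to 540 of the Ccl19 transcript. Gm12407 (chr4:41791989-41793601, minus strand) differed from the Ccl19 transcript at 2 of 324 bases, C411T and G437C, both in exon 3. Ccl19-ps1 (chr4:41921405-41923020, plus strand) differed at 4 of 327 bases, T215C, C281A, C331T and A480C. Gm2564 (chr4:42629719-42631714, plus strand) differed at 8 of 707 bases, none of them in the stretch printed above. The Ccl19 row of scaffold JH584294.1 (JH584294.1:102539-104139, minus strand) has no transcript in the reference used, so its sequence was not compared.

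For Ccl21a (ENSMUSG00000094686, chr4:42772860-42773993, minus strand) the stretch shown is exon 2 and the start of exon 3, positions 143 to 300 of the annotated Ccl21a transcript, because both bases that separate it from Gm10591, the copy on chromosome 4 with the most reads, lie there.
Ccl21a: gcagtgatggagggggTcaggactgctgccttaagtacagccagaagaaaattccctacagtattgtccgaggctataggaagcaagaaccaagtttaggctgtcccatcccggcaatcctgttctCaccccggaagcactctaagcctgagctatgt
Gm10591: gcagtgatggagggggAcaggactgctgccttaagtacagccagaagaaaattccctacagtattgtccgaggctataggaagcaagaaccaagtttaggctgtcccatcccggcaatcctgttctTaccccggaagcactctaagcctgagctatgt

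Gm10591 (chr4:42612195-42612860, plus strand) differed from the Ccl21a transcript at 2 of 402 bases, T159A and C269T. Ccl21b on chromosome 4, Gm13304 and Gm21541 carried the same T159A and C269T in this stretch. Outside it, Gm13304 differed also at C640T, T812C and G856A, and Gm21541 at these and at G24A. The rows of Ccl21 genes on scaffolds were not compared by sequence.

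Among the chemokines, Ccl19 had hardly any reads on its chromosome 4 row and many under its copies. The chromosome 4 row held 8, 6, 2, 18 and 10 reads in KO 26, KO 21, KO 73, KO 01 and KO 03, and 3, 17, 16, 3 and 5 reads in WT 65, WT 67, WT 73, WT 77 and WT 83. KO mice averaged 0.532 ± 0.309 and WT mice 0.566 ± 0.443 FPKM (SD, n = 5 each), with overlapping groups. The scaffold row held 387 reads (60.9 FPKM) in KO 21, 1 read in KO 26 and in KO 03, and 0 reads in the other 7 libraries, among them all 5 WT libraries. A library at 0 reads allows up to 3 reads, which for this row is 0.423 to 0.626 FPKM, so the row was above that limit in 1 library of 10 and no fold change is given.

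Ccl19-ps3, labelled a pseudogene by its name, held 66.0% of all reads of the 6 Ccl19 rows. Its reads were 294, 314, 39, 159 and 306 in the KO libraries in the order given above and 243, 348, 310, 80 and 314 in the WT libraries. It was lowest in KO 73 and in WT 77. Gm12407 held 20.46% of the reads, between 27 and 155 per library, and Ccl19 itself held 2.41% on chromosome 4 and 10.7% on the scaffold, where 387 of the 389 reads came from KO 21. How reads that fit several copies equally well were assigned is not given in the sources used here. Reads summed over the 6 rows, as reads per 1000000 of the total that scales the FPKM (RPM), came to 20.6, 40.7, 4.71, 15.3 and 22.8 RPM in the KO libraries and 16.4, 25.8, 23.7, 7.82 and 21.1 RPM in the WT libraries. The sums overlapped between the groups, at 20.8 ± 13.1 RPM in DUSP6 KO and 18.96 ± 7.14 RPM in WT (SD, n = 5 each; two-sided exact permutation p = 0.913). These sums were chosen after the data were seen, and without the scaffold row the KO mean was 16.8 ± 7.32 RPM (exact permutation p = 0.579).

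A further pair of genes on scaffold JH584293.1, CR974586.5 and CR974586.3, has an exon of 133 bases, the length of Ccl19 exon 2. They held 21 to 215 and 56 to 128 reads per library. Their sequences were not analysed here, and with them the sums were 33.1 ± 16.6 and 32.4 ± 8.96 RPM in DUSP6 KO and WT (SD, n = 5 each; exact permutation p = 0.817).

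Ccl21a was read mostly from its scaffold row, and it varied more between mice than any other member with more than 1 FPKM in all libraries. The scaffold row (JH584294.1:121048-121713, minus strand) was at 14.3, 120, 7.64, 13.2 and 18.9 FPKM in the KO libraries and at 10.9, 133, 22.8, 63.7 and 26.2 FPKM in the WT libraries. KO 21 and WT 67 stood far above the others, WT 77 lay between, and the groups overlapped. KO mice averaged 34.9 ± 48.0 and WT mice 51.4 ± 49.9 FPKM (SD, n = 5 each), a log2 difference of -0.81 with an SE of 0.80. The limma adjusted p was 0.978 and the unadjusted p was 0.333. Without KO 21 the log2 difference was -1.46, with an unadjusted p of 0.0476 and an adjusted p of 0.699. Without WT 67 it was -0.34 (limma unadjusted p = 0.670), and without both KO 73 and WT 67 it was 0.011. The chromosome 4 row had 0 to 24 reads per library, at 0.630 ± 0.628 for KO mice and 0.538 ± 0.159 FPKM for WT mice (SD, n = 5 each).

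Of the reads of all 9 Ccl21 rows, the scaffold row of Ccl21a held 87.0%, Gm10591 8.22%, the chromosome 4 row of Ccl21a 2.47% and a Ccl21c row of scaffold GL456350.1 2.14%. By library the share of the scaffold row of Ccl21a ran from 43.1% in WT 65 to 97.7% in KO 21. Ccl21b on chromosome 4 and Gm21541 held 0 reads in all libraries. Summed over the 9 rows, the reads were 7.13, 49.5, 3.34, 6.83 and 13.6 RPM in the KO libraries and 10.2, 55.5, 14.7, 27.7 and 12.4 RPM in the WT libraries. Only KO 21 among the KO libraries was above the WT mean, and the sums were 16.1 ± 19.1 and 24.1 ± 18.8 RPM in DUSP6 KO and WT (SD, n = 5 each; two-sided exact permutation p = 0.262). Without the row of scaffold JH584294.1 they were 2.06 ± 2.24 and 3.42 ± 2.04 RPM (exact permutation p = 0.143).

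**Figure D1:**
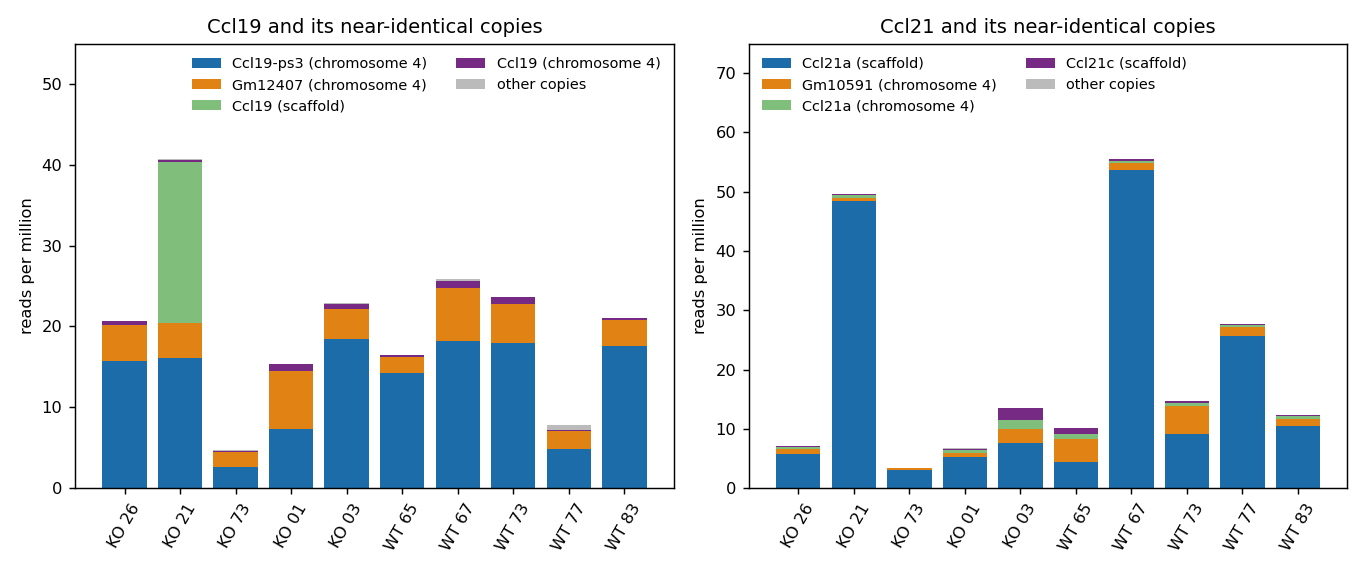
Stacked bars give the RPM of each row of the Ccl19 group (left) and of the Ccl21 group (right) in each of the 10 libraries, with colours for the 4 rows with the most reads. Ccl19-ps3 takes most of the Ccl19 reads except in KO 01, where Gm12407 holds 155 of 332 reads, and in KO 21, where 387 reads fall on the scaffold row of Ccl19, and the Ccl21 sums are highest in KO 21 and WT 67 at 49.5 and 55.5 RPM.

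Cxcl13, the B cell attractant of the follicles (chr5:95956951-95961068, plus strand), was the member with the highest level. It was at 144, 166, 104, 119 and 188 FPKM in the KO libraries and at 108, 153, 140, 105 and 143 FPKM in the WT libraries. The groups overlapped across most of their range, and KO 73 and WT 77 held the lowest value of their group. KO mice averaged 144 ± 33.9 and WT mice 130 ± 22.0 FPKM (SD, n = 5 each). The fold on the scale of FPKM + 0.1 was 1.10 (95% interval 0.84 to 1.44), with a limma adjusted p of 0.993. The log2 difference was 0.14, also without WT 65 and WT 67, and ran from 0.031 without KO 03 to 0.24 without KO 73 when single libraries were left out.

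Cxcl12, the ligand of CXCR4 and ACKR3 (chr6:117168535-117181367, plus strand), was at 61.3, 94.6, 54.7, 71.4 and 66.3 FPKM in the KO libraries and at 58.9, 43.1, 61.6, 69.1 and 66.1 FPKM in the WT libraries. KO 21 was highest and WT 67, the library with the most pancreas RNA, was lowest. The means were 69.7 ± 15.2 FPKM and 59.7 ± 10.1 FPKM in DUSP6 KO and WT (SD, n = 5 each), a fold of 1.16 (95% interval 0.90 to 1.49) with a limma adjusted p of 0.974. Without WT 65 and WT 67 the log2 difference was 0.063, against 0.21 with all libraries. The part of pancreas RNA in this difference was not tested.

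Ccr7, the receptor through which T cells and mature dendritic cells follow CCL19 and CCL21 (chr11:99144196-99155077, minus strand), was at 54.5, 55.2, 32.3, 47.7 and 67.2 FPKM in the KO libraries and at 46.7, 58.7, 48.8, 37.0 and 54.4 FPKM in the WT libraries. KO 73 and WT 77 were lowest and the groups overlapped. Means of 51.4 ± 12.7 FPKM for KO mice and 49.1 ± 8.26 for WT mice (SD, n = 5 each) gave a fold of 1.03 (95% interval 0.77 to 1.37; limma adjusted p = 0.996).

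Cxcr5, the receptor that brings B cells into follicles (chr9:44511787-44561877, minus strand), was at 51.9, 56.7, 25.7, 38.8 and 49.4 FPKM in the KO libraries and at 50.5, 64.7, 44.3, 34.0 and 53.4 FPKM in the WT libraries. The order resembled that of Ccr7 in that KO 73 and WT 77 were again lowest. The means were 44.5 ± 12.4 FPKM and 49.4 ± 11.4 FPKM in DUSP6 KO and WT (SD, n = 5 each), a fold of 0.89 (95% interval 0.63 to 1.26; limma adjusted p = 0.993). Without KO 73 the log2 difference was 0.013, against -0.17 with all libraries.

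Cxcr4, the signalling receptor for CXCL12 (chr1:128588199-128592293, minus strand), did not follow the other receptors. It was at 74.3, 54.0, 59.2, 52.3 and 82.3 FPKM in the KO libraries and at 51.9, 47.0, 76.5, 93.2 and 97.3 FPKM in the WT libraries. WT 77, low for Ccr7 and Cxcr5, was among the highest for Cxcr4, and WT 65 and WT 67 were the lowest of all. KO mice averaged 64.4 ± 13.2 and WT mice 73.2 ± 23.1 FPKM (SD, n = 5 each), a fold of 0.90 (95% interval 0.64 to 1.27; limma adjusted p = 0.993). Without WT 65 and WT 67, the libraries with pancreas RNA, the log2 difference was -0.48 with an unadjusted p of 0.0214 and a limma adjusted p of 0.843. With single libraries left out it ran from -0.29 without WT 67 to -0.027 without WT 83, against -0.15 with all libraries. The part of pancreas RNA in this shift was not tested.

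Ackr3, the atypical receptor that removes CXCL12 and is known on marginal zone B cells in the spleen (chr1:90203980-90216751, plus strand), had the smallest p of the members. It was at 12.8, 22.7, 16.4, 16.8 and 17.8 FPKM in the KO libraries and at 12.1, 15.6, 14.2, 11.8 and 12.7 FPKM in the WT libraries. KO 21, KO 73, KO 01 and KO 03 lay above the highest WT library and KO 26 lay among the WT libraries, so the groups overlapped. KO mice averaged 17.3 ± 3.56 and WT mice 13.3 ± 1.59 FPKM (SD, n = 5 each). The fold was 1.29 (95% interval 1.04 to 1.60), a log2 difference of 0.36 with an SE of 0.14. The limma unadjusted p was 0.0259 and the two-sided exact permutation p was 0.0397, where the smallest that 5 against 5 allows is 0.00794. Adjusted over all 21296 genes tested, the p was 0.789, so the difference did not pass the threshold of 0.05. It is 1 of 11 rows with an unadjusted p under 0.05, and the unadjusted p was over 0.05 when KO 21, KO 03, WT 65, WT 77 or WT 83 was left out (0.0512 to 0.0584). Without both WT 65 and WT 67 the log2 difference was 0.40, with a limma unadjusted p of 0.0413 and an adjusted p of 0.957.

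Ackr4, the scavenger of CCL19 and CCL21 (chr9:104084157-104126933, minus strand), was near the lower end of detection at 23 to 83 reads per library. It was at 0.588, 0.736, 0.444, 0.463 and 0.616 FPKM in the KO libraries and at 0.609, 0.224, 0.894, 0.559 and 0.612 FPKM in the WT libraries. All KO values lay within the WT range. The means were 0.569 ± 0.120 FPKM and 0.580 ± 0.239 FPKM in DUSP6 KO and WT (SD, n = 5 each). The fold from log2 values of FPKM + 0.1 was 1.03 (95% interval 0.66 to 1.62; limma adjusted p = 0.997), in the other direction from these means.

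No member row passed the adjusted threshold of 0.05 in DUSP6 KO against WT, where 0.0704% of all genes tested did (15 of 21296). At an unadjusted p under 0.05, 1 of 11 rows was called against a background of 5.66% in either direction, and in the direction higher in DUSP6 KO, the direction of Ackr3, the background was 2.62%. In 0 of 11 rows were the groups without overlap, against 1.11% of all genes. Over all alternatives tried, the smallest adjusted p of a member row was 0.498, for Ackr3 without KO 26.

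**Figure D2:**
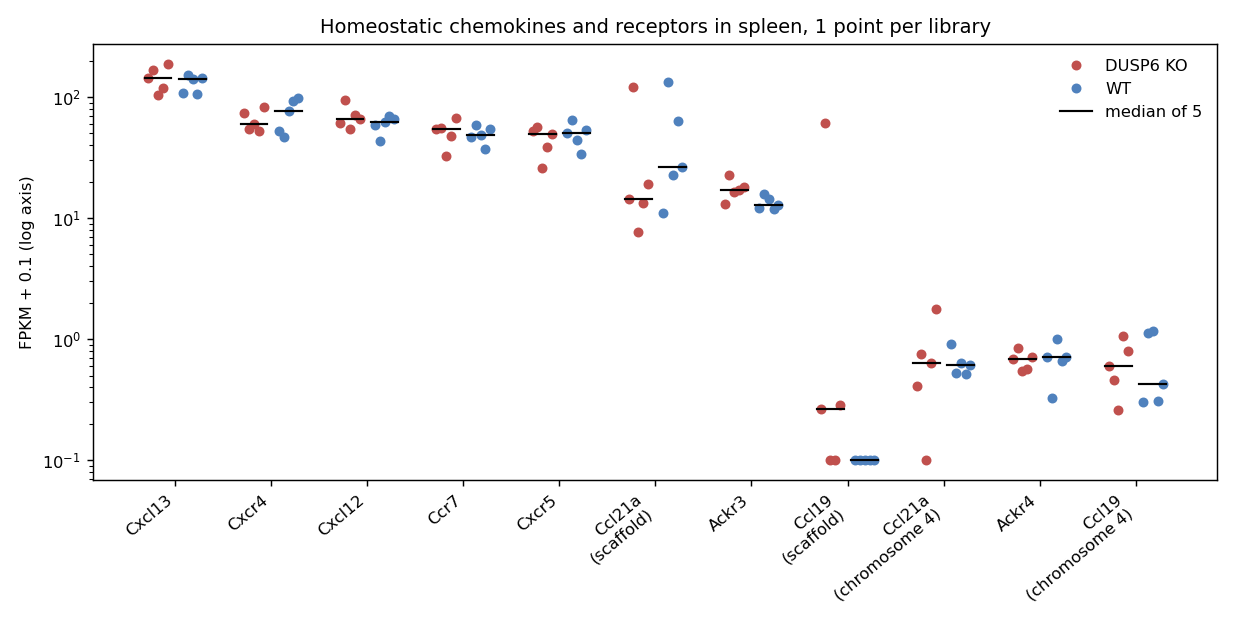
Points give FPKM + 0.1 on a log axis in each library, with 5 DUSP6 KO (red) and 5 WT (blue) points per row and a black line at the median of 5, and rows are ordered by their mean over all libraries. The groups overlap in all 11 rows, and the scaffold rows of Ccl21a and Ccl19 have single libraries far above the rest.

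**Figure D3:**
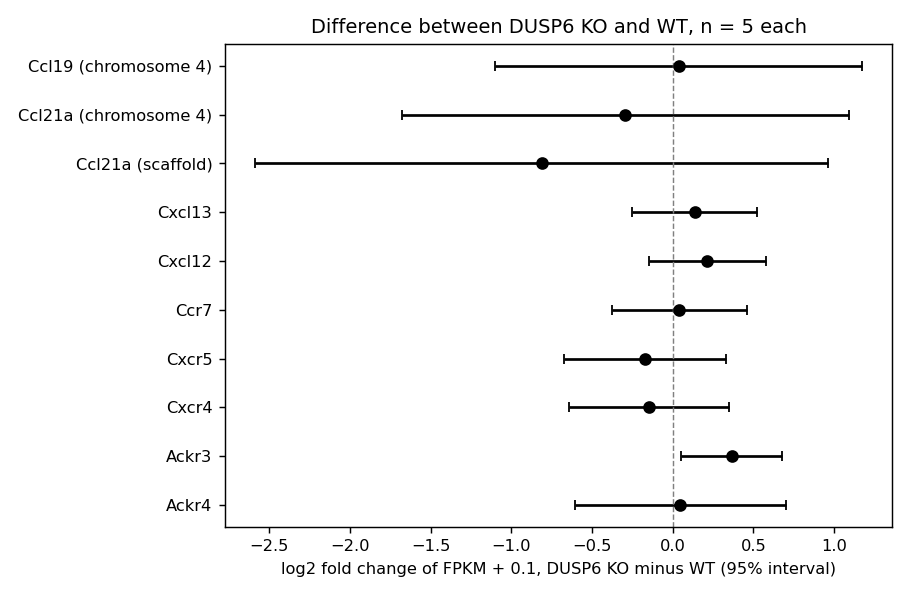
Points give the limma log2 fold change of FPKM + 0.1 (DUSP6 KO minus WT) with 95% intervals for 10 member rows, and the scaffold row of Ccl19 is left out because all 5 WT libraries are at 0. The interval of Ackr3, before adjustment for the number of genes, runs from 0.053 to 0.68, and the other 9 intervals include 0.

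Per length, the order of the levels over the 10 libraries ran from Cxcl13 (137 FPKM) through Cxcr4 (68.8), Cxcl12 (64.7), Ccr7 (50.2), Cxcr5 (46.9), scaffold Ccl21a (43.1) and Ackr3 (15.3) to scaffold Ccl19, chromosome 4 Ccl21a, Ackr4 and chromosome 4 Ccl19. The place of scaffold Ccl19 rests on KO 21, and it was above chromosome 4 Ccl21a in 1 of 10 libraries. Rows of Ccl19 and Ccl21a are placed here without their copies, so their places need not be those of the genes. The chromosome 4 row of Ccl19 held 2.41% of the reads of its group of copies. Ccl19-ps3, identical to Ccl19 over its annotated length, was at 8.22 to 56.9 FPKM. Cxcl13 was above Cxcr4 in 10 of 10 libraries, by 2.44 times the larger SD. Cxcr4 and Cxcl12 differed by 0.22 of the larger SD, Ccr7 and Cxcr5 by 0.29 and Cxcr5 and scaffold Ccl21a by 0.08, all within the spread between libraries. Scaffold Ccl21a and Ackr3 also differed within that spread, by 0.59 of the larger SD, with Ccl21a above in 7 of 10 libraries. Cxcl12 was above Ccr7 in 8 of 10 libraries, by 1.09 SD. The 3 rows with the lowest means, at 0.55 to 0.58 FPKM, did not differ beyond their spread.

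The receptors of lymphocytes were set against marker genes of the cells that carry them. The SD of log2 Ccr7 over the 10 libraries was 0.31, and it was 0.069 after the mean log2 level of 10 T cell genes was subtracted. For Cxcr5 the SD was 0.39, and 0.11 after subtraction of the mean of 9 B cell genes. For Cxcr4 the SD was 0.38 and became larger, 0.61, when the B cell genes were subtracted. For Cxcl13 it was 0.29, and 0.17 after subtraction of 8 genes of follicular dendritic and marginal reticular cells.

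Relative to these lists the groups were again compared by two-sided exact permutation tests, 1 for each of the 11 rows against its own list and further ones against other lists, none of them adjusted. Ccr7 relative to the T cell list was at 1.30 ± 0.037 in DUSP6 KO and 1.32 ± 0.095 in WT on the log2 scale (SD, n = 5 each; exact permutation p = 0.714). Cxcr5 relative to the B cell list was at -1.04 ± 0.14 and -1.07 ± 0.083 in DUSP6 KO and WT (exact permutation p = 0.770). Ackr3 relative to 8 genes of marginal zone B cells was at 0.054 ± 0.32 in DUSP6 KO and -0.35 ± 0.20 in WT, a difference of 0.40 (exact permutation p = 0.0397), with overlapping groups. This p was between 0.0317 and 0.0873 when single libraries were left out, and over 0.05 without KO 21, KO 73, KO 01, WT 65, WT 67 or WT 83. In KO 73 the marginal zone list was lower than in any other library (mean log2 level 3.47). Ackr3 was at 16.4 FPKM there, above every WT library. Whether this list follows the cells that carry Ackr3 was not tested. Relative to the T cell list the Ackr3 difference had an exact permutation p of 0.214 and relative to the list of reticular stroma 0.0952. Relative to the mean of all cell lists but its own it was 0.76 (exact permutation p = 0.00794, the smallest that 5 against 5 allows), and that mean holds the exocrine pancreas list, which averaged -2.31 in DUSP6 KO and 1.48 in WT on the log2 scale. Cxcl13 relative to its list differed by 0.16 (exact permutation p = 0.159) and Cxcl12 relative to reticular stroma by 0.15 (exact permutation p = 0.476). For the scaffold row of Ccl19 the p was 0.0397, but the libraries at 0 reads carry only the level of the list there. The other 5 rows had exact permutation p-values of 0.325 to 0.952.

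**Figure D4:**
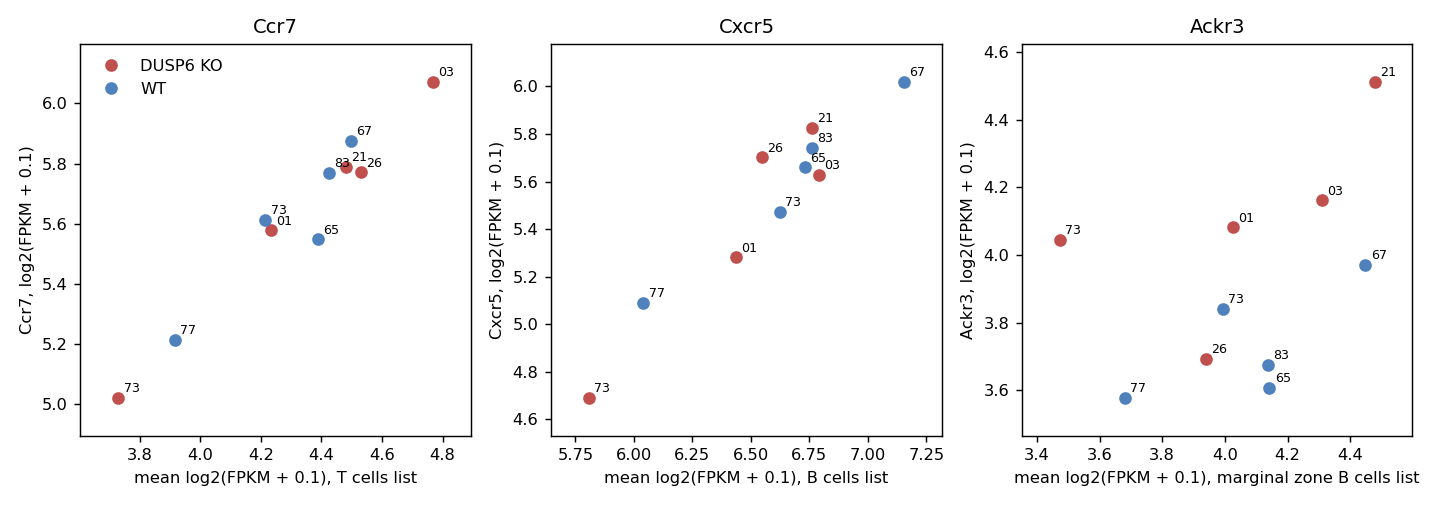
Each panel sets the log2(FPKM + 0.1) of a receptor on the vertical axis against the mean log2(FPKM + 0.1) of its cell list on the horizontal axis, with 1 point per library labelled by the number in its title, DUSP6 KO in red and WT in blue. Ccr7 and Cxcr5 rise with their lists in both groups with KO 73 and WT 77 at the low end, and 4 of the 5 KO points of Ackr3 lie above every WT point.

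Ligands and receptors were then compared across the 10 libraries as 8 pairs, with Ccl19 and Ccl21a read from chromosome 4 and p-values from 100000 permutations. Cxcl13 and Cxcr5 had a Pearson r of 0.70 (permutation p = 0.0218, adjusted over the 8 pairs 0.0872) and a Spearman rho of 0.73 (permutation p = 0.0202, adjusted 0.162). With group means subtracted r was 0.80 (permutation p = 0.0044, adjusted 0.0355). Without KO 73 and WT 77, the libraries farthest from the Cxcl13 median, r was 0.42 (n = 8; permutation p = 0.299), so the relation rested on those libraries. Ccl21a and Ccr7 had r = 0.76 (permutation p = 0.0128, adjusted 0.0872) and rho = 0.42 (permutation p = 0.232, adjusted 0.464), and with group means subtracted r was 0.78 (permutation p = 0.0098, adjusted 0.0390). Without KO 03 and KO 73 r was -0.070, so this relation rested on those libraries as well. On this row of Ccl21a KO 73 had 0 reads, so its value there is set by the pseudocount, and KO 03 had 24 reads. Ccl19 and Ccr7 had r = 0.61 (permutation p = 0.0624, adjusted 0.166) and rho = 0.60 (permutation p = 0.0726, adjusted 0.194). For Cxcl12, r was 0.22 with Cxcr4 and 0.42 with Ackr3, and without subtraction of group means 0 of the 8 pairs passed the adjusted threshold.

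With the copy sums in place of the chromosome 4 rows, a change made after the data were seen that touches 5 pairs, Ccl19 and Ccr7 had r = 0.88 (permutation p = 0.0018, adjusted over the 5 pairs 0.0088) and rho = 0.83 (permutation p = 0.0049, adjusted 0.0243). Without KO 73 and WT 77 r was 0.45 (permutation p = 0.256, adjusted 0.427), so this relation too rested on those libraries. The sums of Ccl19 and Ccl21 had r = 0.59 (permutation p = 0.0714, adjusted 0.179) and rho = 0.72 (permutation p = 0.0230, adjusted 0.0575). Without KO 73 and WT 77 this r was 0.82 (n = 8; permutation p = 0.0063, adjusted 0.0317), past the threshold. Ccl21 sums and Ccr7 had r of 0.26 to 0.49 over the 3 settings, which were all libraries, group means subtracted and the farthest libraries left out (permutation p of 0.147 to 0.545).

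Among the 13422 genes whose mean level reached 1 FPKM, those whose log2 levels were most like a member over the 10 libraries are given with Pearson's r, as a description. Group means were not subtracted. With so many genes and 10 libraries, high r values also arise by chance, and no chance level was worked out. Ccr7 was most like Cd247 (0.99), which encodes the zeta chain of the T cell receptor complex, Nfkbia (0.99), the NF-kB inhibitor, and Elf4 (0.97). Cxcr5 was most like AI467606 (0.99), Nfkb2 (0.99), a subunit of noncanonical NF-kB, and Stk10 (0.98). Ackr3 was most like Siglec1 (0.95), a lectin of macrophages, Gab2 (0.95) and Stab2 (0.93), a scavenger receptor of splenic sinus endothelium. Cxcl12 was most like Plekha6 (0.97), the matrix protease inhibitor Timp3 (0.96) and Pwwp2b (0.95). Cxcl13 was most like D16Ertd472e (0.96), Bfar (0.94) and Parp8 (0.94). Cxcr4 was most like Arsk (0.90), the heavy chain segment Ighv5-9-1 (0.89) and Hspa2 (0.88). The scaffold row of Ccl21a was most like Ptpre (0.94), Zfp759 (0.93) and Mfsd4b4 (0.93). The chromosome 4 row of Ccl19 was most like its copy Gm12407 (0.91), and Ackr4 was most like Flywch1 (0.92).

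The other genes that place cells in the spleen were described by lists. In 4 lists with 70 genes, 67 of them tested, 1 gene had an unadjusted p under 0.05 and 0 passed the adjusted threshold, against 5.66% and 0.0704% of all genes. That gene was Rgs1, which ends G protein signals of chemokine receptors, at 4.15 ± 1.44 for KO mice and 2.50 ± 0.67 FPKM for WT mice (SD, n = 5 each; limma log2 difference 0.68, unadjusted p = 0.0249, adjusted p = 0.789). Of the 24 genes of chemokine receptor signalling, 6 had a positive log2 difference, with a median of -0.063. Of 13 tested genes of other homing axes, 11 were positive, with a median of 0.18. The most abundant of them were Ccr6 (14.5 ± 3.69 and 13.3 ± 1.65 FPKM in DUSP6 KO and WT) and the atypical receptor Ackr1 (13.2 ± 10.4 and 8.98 ± 5.51 FPKM).

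Lymphotoxin and noncanonical NF-kB signals keep the production of these chemokines going. Of 17 such genes 2 had a positive log2 difference, with a median of -0.11, and the most abundant were Ltb (158 ± 40.7 and 177 ± 41.7 FPKM in DUSP6 KO and WT) and Nfkb2 (47.6 ± 9.46 and 51.3 ± 6.87 FPKM). Like the B cell list (0 of 9 genes positive, median -0.18), this list had its lowest mean log2 levels in KO 73 and WT 77. The part of B cells in these differences was not tested. Of 13 tested genes of oxysterol and sphingosine phosphate positioning 6 were positive, and 8 after median centring, and S1pr1, the receptor for exit from the spleen, was at 54.5 ± 12.1 and 60.8 ± 15.5 FPKM in DUSP6 KO and WT (SD, n = 5 each). The median over all 21296 genes was -0.0046.

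Cell lists gave the setting of the members. In the list of reticular stroma 6 of 10 genes had a positive log2 difference, and 3 of the 10 had an unadjusted p under 0.05, all higher in DUSP6 KO, where 2.62% of all genes were. They were Pdgfrb (12.4 ± 3.26 and 8.12 ± 0.63 FPKM in DUSP6 KO and WT), Tcf21 (27.3 ± 7.77 and 16.8 ± 2.87 FPKM) and Tlx1 (19.2 ± 3.75 and 12.8 ± 2.10 FPKM), with limma adjusted p-values of 0.555, 0.472 and 0.462. In 4 of 5 KO libraries each of them was above the highest WT library. The median difference of the whole list was 0.16, its mean log2 level was 2.54 ± 0.25 in DUSP6 KO and 2.48 ± 0.12 in WT (SD, n = 5 each), and its summed level was 77.5 to 121 FPKM in DUSP6 KO and 69.2 to 79.8 FPKM in WT.

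Of 8 genes of endothelium 6 had a positive log2 difference, with a median of 0.16, and of 8 dendritic cell genes 5 were positive, with a median of 0.056. Among the endothelial genes, Tek (4.07 ± 0.75 and 3.14 ± 0.39 FPKM in DUSP6 KO and WT) and Stab2 (17.7 ± 3.51 and 14.3 ± 1.74 FPKM) had an unadjusted p under 0.05, and among the dendritic cell genes Siglech did (10.6 ± 1.49 and 8.405 ± 1.505 FPKM), all higher in DUSP6 KO, where 2.62% of all genes were. Stab2 was also among the genes most like Ackr3. Group means were not subtracted for that likeness, so the higher levels of both genes in DUSP6 KO enter it. In the neutrophil list 6 of 11 genes had an unadjusted p under 0.05, all lower in DUSP6 KO, where 3.03% of all genes were. S100a9 was at 422 ± 209 and 960 ± 580 FPKM in DUSP6 KO and WT (limma adjusted p = 0.753), and the others were S100a8, Camp, Ngp, Ltf and Elane, with limma adjusted p-values of 0.789 to 0.866. Of 8 plasma cell genes, Xbp1 (47.4 ± 8.24 and 67.01 ± 10.3 FPKM) and Derl3 (6.85 ± 1.18 and 9.40 ± 2.59 FPKM) were lower in DUSP6 KO at that p, and 2 of the 8 had a positive log2 difference, with a median of -0.16 over the list. In the mesothelium list 1 of 7 genes, Krt19, was lower in DUSP6 KO at that p (0.046 ± 0.085 and 0.40 ± 0.47 FPKM). Of these 7 genes 1 had a positive log2 difference, with a median of -0.99 over the list. None of the 15 cell lists held a gene past the adjusted threshold.

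The remaining cell lists had 0 genes with an unadjusted limma p under 0.05. All 9 B cell genes had a negative log2 difference, with a median of -0.18, and Cd79a was at 397 ± 103 and 467 ± 128 FPKM in DUSP6 KO and WT (SD, n = 5 each). The medians were 0.037 for T cells, 0.0011 for marginal zone B cells, -0.089 for follicular dendritic and marginal reticular cells, 0.027 for lymphatic endothelium, 0.17 for mature dendritic cells and 0.27 for erythroid cells. The exocrine pancreas list had a median of -3.99, with WT 67 and WT 65 far above the rest, and the adipose list one of -0.12.

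The libraries at the low end for Ccr7, Cxcr5, Cxcl13 and the Ccl19 sum, KO 73 and WT 77, each had the highest sum of another cell list, KO 73 of the erythroid and WT 77 of the neutrophil list. The erythroid list summed to 100279 FPKM in KO 73 and 47645 FPKM in WT 77, against 19180 to 67589 FPKM in the other 8 libraries. The neutrophil list summed to 5113 FPKM in WT 77 and 2025 FPKM in KO 73, against 599 to 2352 FPKM in the rest. The B cell list summed to 731 and 830 FPKM in KO 73 and WT 77, against 1072 to 1862 FPKM in the rest. The part of this in the levels of the members was not tested.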

How the data were processed

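Total RNA of whole spleen (400 ng per mouse) went to a service provider for sequencing of poly-A RNA. Per the supplementary methods and labels, the authors used Hisat2 for alignment and featureCounts 1.5.0-p3 for counting, tested the counts with DESeq2 and deposited FPKM, the only values used here. The labels name a human genome build, but the identifiers and coordinates are mouse ones, and 98.3% of genes had the start and end of GENCODE M21 (GRCm38). Whether strand was used in counting is not given in the sources used here.

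The members, gene lists and tests were chosen with earlier results of these data known. In each library FPKM times gene length was a whole multiple of 1 step for 100% of values (within 0.001 of a read), which gave the reads. Log2 values of FPKM with 0.1 added were fitted for the 21296 genes that averaged 0.1 FPKM or more, by limma 3.58.1 (trended empirical Bayes; R 4.3.3), with Benjamini-Hochberg adjustment over all of them and a threshold of 0.05. This fit was tested on simulated data. FPKM was used as deposited, on the log scale, and DESeq2 was not rerun on the recovered reads. An alternative was limma voom on those reads (7 genes higher and 7 lower). Counts of genes past the threshold given here are those of these fits and not those of the study. Single values were compared by two-sided exact permutation of 5 against 5, and correlations by 100000 permutations (numpy 2.4.6, scipy 1.17.1). Copies were aligned without gaps to the annotated Ccl19 and Ccl21a transcripts of chromosome 4. The text names all 9 members, their copies, Dusp6 and the genes most like a member (up to 3). It also names the list genes with an unadjusted p under 0.05 and, for some of the other lists, the 1 or 2 most abundant. Read limits cover counting error only. Libraries were checked only for duplicates, and in none of the 20 pairs within a group did the reads agree within counting noise (chi-square per gene of 14.7 or more). Each library is 1 animal, and the labels used here name no batch. Alternatives were other pseudocounts (1 and 0.01), filters (none, or a mean of 1 FPKM), scalings, a robust trend and leaving out each library. Copy sums and the leaving out of pairs of libraries with pancreas or adipose genes were added after the data were seen.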

Additional observations from a re-analysis of the deposited data

Results flagged for a closer look

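In 3 of 25 groups of 5 libraries checked, a single library lay far from the others by the ratio of its gap to the whole range, and chance flags about 1 in 20 such groups. All 3 are the library KO 21. The scaffold row of Ccl19 was at 60.9 FPKM there, with a gap of 0.997 of the range of the KO group. The scaffold row of Ccl21a was at 120 FPKM there, with a gap of 0.900 of the range. The sum of the Ccl21 copies was 49.5 RPM (reads per 1000000 of the total that scales the FPKM) there, with a gap of 0.779 of the range. The Ccl21 sum is no separate case, since 941 of its 963 reads in KO 21 are those of the Ccl21a row. WT 67 was as high for the Ccl21a row (133 FPKM) and had 0 reads on the Ccl19 row.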

How the results depend on the processing

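No paired analysis was made, because the groups are different mice, and the number 73, found in both, pairs nothing. No member row reached an adjusted p of 0.05 under any setting (0.498 or more), and the log2 differences of Cxcl13, Cxcl12, Cxcr4 and Ackr3 kept their sign in all of them, though not their size (0.031 to 0.24, 0.098 to 0.30, -0.29 to -0.027 and 0.26 to 0.47 with single libraries left out). The sign of 5 other rows did not hold when single libraries were left out, and the cause was not tested: chromosome 4 Ccl19 ran from -0.19 to 0.32, chromosome 4 Ccl21a from -0.74 to 0.29, Ccr7 from -0.065 to 0.20, Cxcr5 from -0.30 to 0.013 and Ackr4 from -0.20 to 0.21. Scaffold Ccl21a ran from -1.46 to -0.34. With a pseudocount of 1 the chromosome 4 rows of Ccl19 and Ccl21a stood at -0.0098 and 0.012. With 0.01 they stood at 0.059 and -0.90, against 0.036 and -0.29 in the main fit, and KO 73 had 0 reads on this Ccl21a row. The copy sums of Ccl19 gave -0.050, with the scaffold genes CR974586.5 and CR974586.3 -0.11, and without the scaffold row of Ccl19 -0.24. The direction of the -0.050 and the -0.11 depends on the scale, since the KO means in RPM (20.8 and 33.1) were above the WT means (18.96 and 32.4). The copy sums of Ccl21 gave -0.93, and -1.07 without scaffold JH584294.1, against -0.29 for chromosome 4 Ccl21a. For that chromosome 4 row the direction also depends on the scale, since its KO mean (0.630 FPKM) was above its WT mean (0.538 FPKM). Without WT 65 and WT 67 Ackr4 was at -0.23, and without KO 73 and WT 67 chromosome 4 Ccl19 was at 0.58, Ackr4 at -0.13, Cxcr5 at 0.12, chromosome 4 Ccl21a at 0.23 and scaffold Ccl21a at 0.011. With the latter pair left out Ccr7 was at 0.27, Cxcl13 at 0.31 and Cxcr4 at -0.26 (limma unadjusted p of 0.0904, 0.0982 and 0.272). The count of genes past the adjusted threshold, 15, was 10 to 34 with single libraries left out (34 without KO 21) and 24 without KO 73 and WT 67. The count of member rows with an unadjusted p under 0.05 was 0 or 1 with single libraries left out and 2 (Ackr3 and Cxcr4) without WT 65 and WT 67.

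Relative to their cell lists, with single libraries left out, chromosome 4 Ccl19 ran from -0.31 to 0.23, chromosome 4 Ccl21a from -0.71 to 0.20, Ccr7 from -0.057 to 0.0025, Cxcr5 from -0.027 to 0.052, Cxcr4 from -0.22 to 0.31, Ackr3 from 0.27 to 0.47 and Ackr4 from -0.27 to 0.12. Cxcl12 ran from 0.030 to 0.26, Cxcl13 from 0.11 to 0.23 and scaffold Ccl21a from -1.49 to -0.41. Scaffold Ccl19, at 0 reads in all WT libraries, has a value set by the pseudocount and no bound on the difference: 0.69 to 2.95 with single libraries left out and 1.15 with a pseudocount of 1 (exact permutation p = 0.437), against 2.37. Relative to the mean of the other cell lists, chromosome 4 Ccl19 was at 0.44, chromosome 4 Ccl21a at 0.11, Ccr7 at 0.44, Ackr4 at 0.45, Ackr3 at 0.76, Cxcl12 at 0.62 and Cxcl13 at 0.53. These lists include exocrine pancreas, high in WT 65 and WT 67, and its part in these values was not tested. With group means subtracted the correlation of Ccl21a and Ccr7 was 0.78 (permutation p adjusted over 8 pairs 0.0390) and that of Cxcl13 and Cxcr5 was 0.80 (adjusted 0.0355). Without the libraries farthest from the median, Ccl21a and Ccr7 were at -0.070, and the copy sums gave 0.45 for Ccl19 and Ccr7, 0.55 for Ccl21 and Ackr4 and 0.82 for Ccl19 and Ccl21 (adjusted 0.0317, past the threshold, against 0.179 with all libraries). The sign for Ccl21 and Ackr4 did not hold, with a lowest r of -0.14 over the settings tried.

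With 5 libraries per group the 95% intervals of Cxcl13, Cxcl12, Ccr7, Cxcr5 and Cxcr4 leave room for folds between 0.63 and 1.49. The chromosome 4 rows of Ccl19 and Ccl21a rest on at most 24 reads per library. With a pseudocount of 0.1 their 95% intervals of the fold were 0.47 to 2.26 and 0.31 to 2.13, and other pseudocounts moved the difference of Ccl21a. The division of reads over near-identical copies is not known here.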
